A study of Capra hircus with 4 samples.

Results

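The enzymes of glycolysis and of glycogen breakdown were followed in RNA-seq libraries of goat longissimus muscle, the long muscle of the back. The members were chosen by name. They are the unigenes, that is the assembled sequences on which reads were counted, that the table of goat pairings assigns to GAPDH, PYGM, PFKM, ALDOA, TPI1, PGK1, PGAM2, ENO3, PKM or LDHA. Of these 10 names, 9 were found, with 22 of the 59774 unigenes. The table spells the remaining enzyme LDH-A, so it fell outside the name rule and is described beside the 9 members but is not counted among them.

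The study asked which muscle transcripts mark goats that were given ractopamine, a β2-agonist. All samples came from Cashmere goats of 2 months. Ractopamine was given by mouth at 1 mg/kg for 28 days and then withdrawn for 21 days. One library is labelled control and 3 are labelled treatment, and they are called control library and treated library 1, 2 and 3 below. The study describes sequencing on a day late in dosing, a day early in withdrawal and a day late in withdrawal, with corresponding controls. The labels give no day for a library and 1 control. The treated libraries may therefore be different stages of treatment, and a library may have been taken before the schedule ended. They were nevertheless compared with the control library as a group of replicates. The treated libraries may thus differ in day as well as in animal. No label states that they are separate animals, and p-values then measure only the spread between these libraries.

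Skeletal muscle stores glucose as glycogen. Glycogen phosphorylase of muscle (PYGM) releases glucose 1-phosphate from it, and a β-adrenergic signal activates this step through phosphorylase kinase. Phosphofructokinase (PFKM) commits the sugar to glycolysis, aldolase (ALDOA) splits it, and triose phosphate isomerase (TPI1) interconverts the products. GAPDH, PGK1, PGAM2, ENO3 and PKM then carry the trioses to pyruvate, and lactate dehydrogenase A (LDH-A) turns pyruvate into lactate. PYGM, PFKM, PGAM2 and ENO3 are the forms typical of muscle. GAPDH was also the gene to which the study's qRT-PCR values were set.

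The libraries held 8533046, 7962590, 7339521 and 6675218 counts in the order control, treated 1, treated 2 and treated 3. Proteins encoded by the mitochondrial genome took 23.8, 42.8, 97.9 and 55.2% of the counts that were paired with goat genes. After they were left out, 6086312, 3991046, 133802 and 2697657 counts remained, so that treated library 2 stands apart. Levels are therefore given on 2 scales. The goat-paired scale counts per 1000000 goat-paired counts (goat CPM), and the nuclear scale per 1000000 of the remaining counts (nuclear CPM), where 3 counts amount to 22.4 in treated library 2. An x-fold is the ratio of the level in a treated library to that in the control library. On the goat-paired scale each x-fold includes the higher mitochondrial share of the treated library. Intervals are 95% intervals that cover counting error only.

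The tissue was checked with markers. Troponin T of fast fibres, desmin and muscle creatine kinase were among the listed muscle genes that were counted, and 6 of 8 listed muscle genes were found. Skeletal actin (ACTA1) held 130, 6, 0 and 3 counts, in the order of libraries given above, which is few for muscle. It was called lower by edgeR with an adjusted p of 0.0325, which became 0.261 without treated library 1 and 0.427 without treated library 3. The call held without treated library 2. Actins have near-identical coding sequences between which reads can be split. Whether this lowered the counts of ACTA1 was not tested, and its level is uncertain. Its part in the enzyme values was not tested. No listed gene of B and plasma cells was in the table. The summed adipocyte markers (4 found, 3 with a mean of at least 10 counts) were at 51.4, 280, 1121 and 63.4 nuclear CPM. The fibroblast markers (also 4 found, 3 with that mean) were at 114, 168, 2220 and 270. On this scale both were highest in treated library 2. On the goat-paired scale both sums were lowest there, at 39.2, 160, 23.7 and 28.4 CPM for the adipocyte and 86.8, 96.2, 47.0 and 121 CPM for the fibroblast markers. Single markers differed in treated library 2. On the goat-paired scale ADIPOQ, CIDEC (11 counts) and COL1A1 had x-folds of 1.67, 1.54 and 1.53 there. LPL, LUM and DCN had 0.198, 0.156 and 0.632. The part of the adipocyte and fibroblast markers in the enzyme values was not tested. With bulk RNA, fewer fibres and less RNA per fibre cannot be told apart.

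The 9 members together held 550625, 263509, 10526 and 297412 counts. Their share of the goat-paired counts was 6.90% for the control (interval by Wilson's method 6.88 to 6.92%) and 3.78, 0.167 and 4.94% for treated libraries 1, 2 and 3. Of the remaining counts they took 9.05, 6.60, 7.87 and 11.0%. The summed x-fold was thus 0.548, 0.0242 and 0.717 on the goat-paired scale. On the nuclear scale it was 0.730, 0.870 and 1.22, so that treated library 3 lay below the control library on one scale and above it on the other.

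Within each gene a single unigene carried nearly all counts. The main unigenes matched goat proteins at 98 to 100% identity, each held a coding sequence that starts with ATG, and they held at least 99.85% of the members' counts in every library. The other unigenes were few in counts. Of the 22, 5 had a bacterial best match (7, 6, 13 and 3 counts) and 4 an apicomplexan one (0, 24, 1 and 0 counts). The table pairs unigenes with goat names by protein similarity, and the enzymes of glycolysis are alike in distant organisms.

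**Figure D1:**
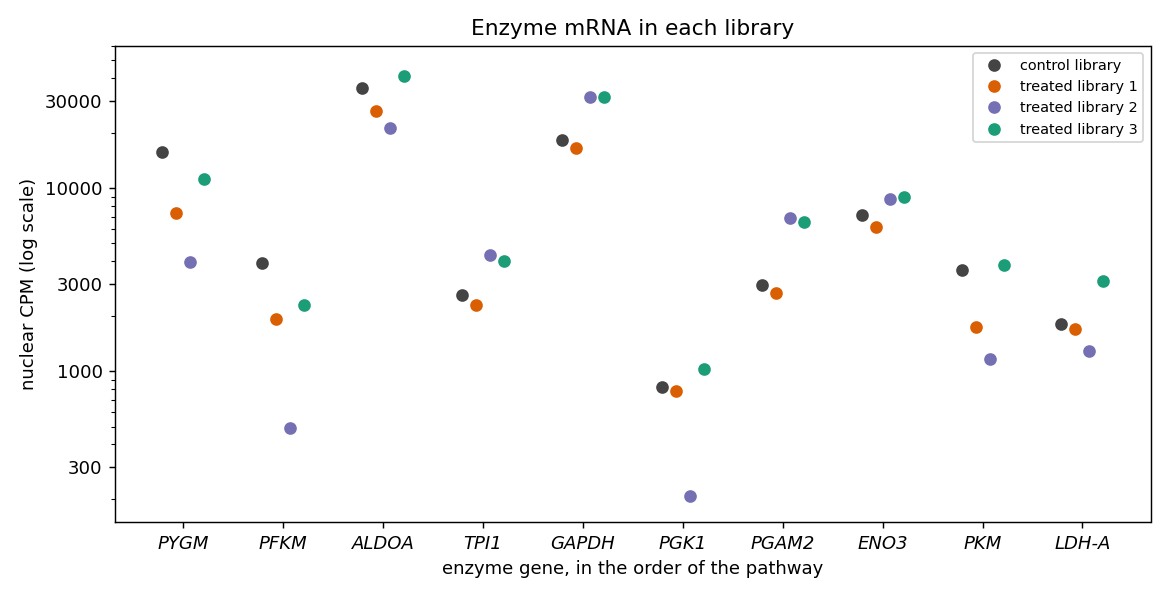
Nuclear CPM, that is counts per 1000000 goat-paired counts without mitochondrial proteins (log scale), for the 10 enzymes in pathway order, with 1 point per library. PYGM, PFKM, ALDOA, PGK1, PKM and LDH-A were lowest in treated library 2, whereas TPI1, GAPDH, PGAM2 and ENO3 were higher in treated libraries 2 and 3 than in the other libraries. On the goat-paired scale all 4 lay below the control in treated library 2, and TPI1 (0.906) and ENO3 (0.734) also in treated library 3.

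Glycogen phosphorylase (PYGM, unigene c21081_g1) held 95916, 29264, 530 and 30233 counts, in the same order of libraries. Its level was 15759, 7332, 3961 and 11207 nuclear CPM. Each treated library lay below the control library, on this scale and on the goat-paired one. The x-fold was 0.465, 0.251 and 0.711 on the nuclear scale, and 0.349, 0.00698 and 0.418 on the goat-paired scale. Of the members' counts, PYGM took 17.4, 11.1, 5.04 and 10.2%, a share that does not depend on the scale.

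Phosphofructokinase of muscle (PFKM, c11192_g1) held 23734, 7758, 66 and 6219 counts. At 3900, 1944, 493 and 2305 nuclear CPM, each treated library was lower than the control library. Its x-folds were 0.498, 0.126 and 0.591 on the nuclear scale and 0.374, 0.00351 and 0.348 on the goat-paired scale. It thus had the lowest x-fold of the 10 enzymes in treated library 2 on both scales. Its 3 transcripts of 3865, 3917 and 4045 bases shared the counts nearly evenly, with 33.0, 33.2 and 33.8% in the control library and 32.7 to 33.7% in treated library 3.

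Aldolase A (ALDOA, c6681_g1) had the most counts of the members in all libraries but treated library 2, at 215169, 105427, 2873 and 110340. This was 35353, 26416, 21472 and 40902 nuclear CPM. Treated libraries 1 and 2 lay below the control library, with x-folds of 0.747 and 0.607 on the nuclear scale, and treated library 3 above it, with 1.16. All 3 x-folds were below 1 on the goat-paired scale, at 0.561, 0.0169 and 0.680.

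Triose phosphate isomerase (TPI1, c8531_g1) held 15867, 9197, 581 and 10837 counts, which are 2607, 2304, 4342 and 4017 nuclear CPM. Treated library 1 was somewhat lower than the control library and the other treated libraries were higher. The x-folds were 0.884, 1.67 and 1.54 on this scale, whereas on the goat-paired scale they were 0.663, 0.0463 and 0.906.

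GAPDH (c50077_g1), which oxidises glyceraldehyde 3-phosphate and which served as reference gene, held 111313, 66565, 4205 and 84905 counts. Its coding stretch around the codon of the catalytic cysteine, the residue that binds the substrate, is shown because this unigene stands for the reference gene, with the codon in capitals (unigene bases 509 to 571):
GAPDH: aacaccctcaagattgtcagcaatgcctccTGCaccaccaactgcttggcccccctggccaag
Its level was 13944, 9545, 666 and 14111 goat CPM, or 18289, 16679, 31427 and 31474 nuclear CPM. Treated libraries 2 and 3 were almost equal on the nuclear scale and far apart on the goat-paired one. The x-fold was 0.684, 0.0477 (interval 0.0463 to 0.0492) and 1.01 on the goat-paired scale, and 0.912, 1.72 and 1.72 on the nuclear scale, so its direction in treated library 2 depends on the scale. Of the members' counts GAPDH took 20.2, 25.3, 39.9 and 28.5%.

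Phosphoglycerate kinase (PGK1, c29006_g1), which makes ATP, was the member with the fewest counts, at 5003, 3123, 28 and 2789. Its nuclear CPM was 822, 783, 209 and 1034. Treated library 2 stood apart, and it rests on 28 counts. Its nuclear x-fold there was 0.255 (interval 0.169 to 0.368), against 0.952 in treated library 1 and 1.26 in treated library 3. On the goat-paired scale the x-folds were 0.715, 0.00707 and 0.740.

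Phosphoglycerate mutase of muscle (PGAM2, c35833_g1) held 18081, 10679, 916 and 17635 counts. With 2971, 2676, 6846 and 6537 nuclear CPM, treated libraries 2 and 3 lay well above the control library. The x-folds were 0.901, 2.30 and 2.20 on this scale. They were 0.676, 0.0640 and 1.29 on the goat-paired scale, and PGAM2 had the highest x-fold of the 10 enzymes in treated libraries 2 and 3 on both scales.

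Muscle enolase (ENO3, c50040_g1) held 43716, 24545, 1170 and 24184 counts. It varied least among the enzymes on the nuclear scale, at 7183, 6150, 8744 and 8965 CPM. The x-folds were 0.856, 1.22 and 1.25 on this scale, and on the goat-paired scale 0.643, 0.0338 and 0.734.

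Pyruvate kinase (PKM, c3617_g1), which forms pyruvate and ATP, held 21826, 6951, 157 and 10270 counts. It was at 3586, 1742, 1173 and 3807 nuclear CPM. Treated libraries 1 and 2 were lower than the control library, with x-folds of 0.486 and 0.327 on this scale, and treated library 3 was close to it, with 1.06. The goat-paired scale gave 0.365, 0.00909 and 0.624.

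The PKM gene gives an M1 form, typical of muscle, and an M2 form, typical of growing cells, which differ in 1 exon. A smaller unigene of PKM (c3647_g1) held 28, 5, 0 and 11 counts. Over 180 aligned bases it had 65.6% identity to the larger unigene, with 62 mismatches, and both ended in the same run of bases. The stretches are shown because they hold the bases that tell the forms apart, with the mismatches in capitals. By the M1 and M2 exons known from mammals, the larger unigene carries the M1 type and the smaller the M2 type.
PKM larger unigene: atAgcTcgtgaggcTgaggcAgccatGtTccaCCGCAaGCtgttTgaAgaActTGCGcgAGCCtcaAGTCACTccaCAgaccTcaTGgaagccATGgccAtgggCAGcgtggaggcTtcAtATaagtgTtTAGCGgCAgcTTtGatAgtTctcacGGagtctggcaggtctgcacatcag
PKM smaller unigene: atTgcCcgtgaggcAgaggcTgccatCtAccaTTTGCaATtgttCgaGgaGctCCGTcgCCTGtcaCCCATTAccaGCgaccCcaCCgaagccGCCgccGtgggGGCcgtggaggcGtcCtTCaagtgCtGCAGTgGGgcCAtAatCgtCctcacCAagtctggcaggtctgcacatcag
The first lies at bases 912 to 1091 of its unigene on the reverse strand, and the second at bases 405 to 584 on the forward strand. How reads from the exons that both forms share were split between the unigenes is not given in the sources used here, so the counts of the smaller unigene are not a measure of the M2 form.

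Lactate dehydrogenase A (LDH-A, c9320_g1) held 11119, 6781, 174 and 8391 counts. Treated library 3 was the highest on the nuclear scale, where the levels were 1827, 1699, 1300 and 3110 CPM. The x-folds were 0.930, 0.712 and 1.70 on this scale and 0.698, 0.0198 and 1.00 on the goat-paired scale.

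**Figure D2:**
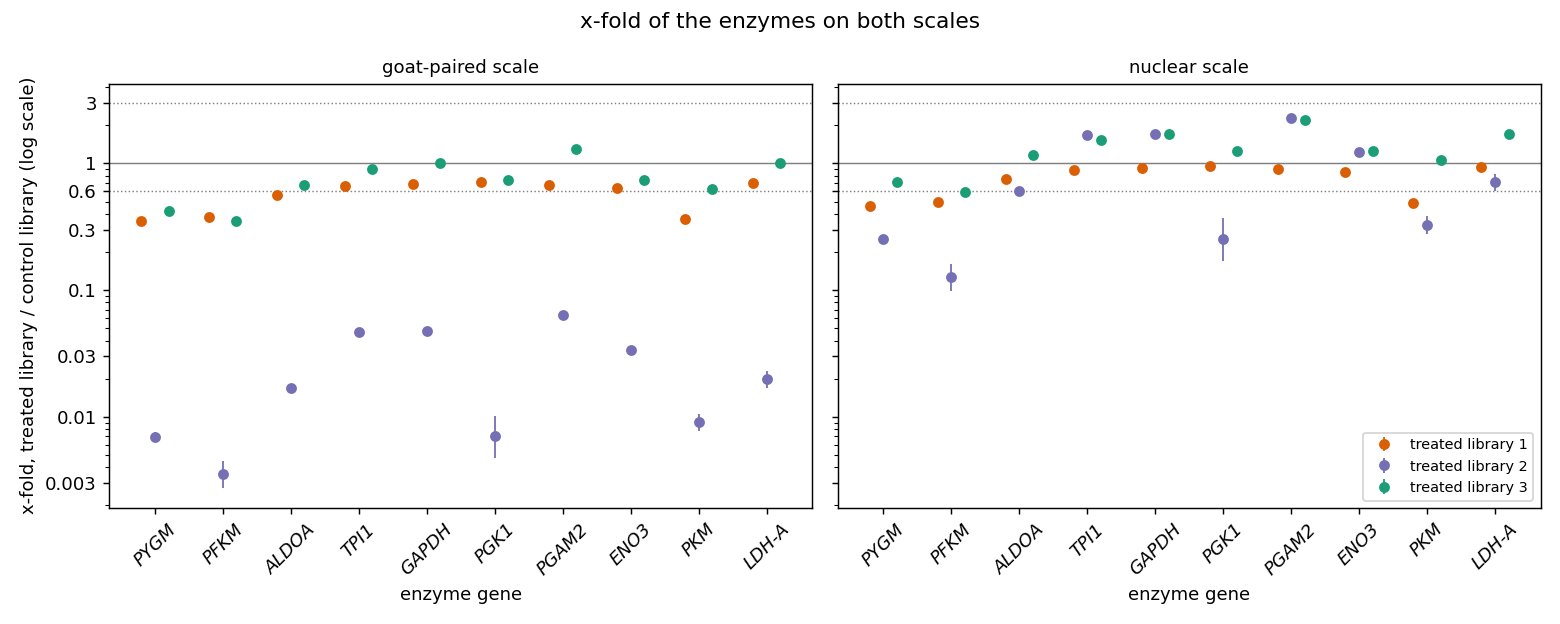
The x-fold of each enzyme (treated library over control library, log scale) on the goat-paired scale (left) and on the nuclear scale (right), with 95% counting intervals and dotted lines at 0.6 and 3. In treated library 2 all 10 enzymes lie below 0.1 on the left, whereas on the right PGAM2, GAPDH, TPI1 and ENO3 lie above 1.

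Levels can be compared between genes per length, by the FPKM values of the authors. ALDOA had the highest level of the enzymes in the control library with 20491 FPKM, followed by GAPDH with 11851, PYGM with 4138, ENO3 with 4120, PGAM2 with 1721, TPI1 with 1715, PKM with 1201, PFKM with 745, LDH-A with 658 and PGK1 with 297. PYGM and ENO3, and PGAM2 and TPI1, were nearly equal in this library, and there is no second control library against which to judge the order. ALDOA ranked 6 and GAPDH 9 among all goat genes in the control library by FPKM. In treated library 2 GAPDH stood above ALDOA, with 538 against 322 FPKM, whereas ALDOA stood above GAPDH in treated library 1 (10707 against 7551) and in treated library 3 (13376 against 11502). PYGM, which stood behind ALDOA and GAPDH in the control library, stood below ENO3 in all treated libraries, with 1349 against 2471, 26.9 against 130 and 1665 against 2900 FPKM. PGK1 was last in all 4 libraries.

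Setting each enzyme to GAPDH, as in qRT-PCR, removes the total from the comparison. Relative to GAPDH, the x-fold of PYGM was 0.510 (0.504 to 0.517), 0.146 (0.134 to 0.159) and 0.413 (0.408 to 0.419) in treated libraries 1 to 3. PFKM was at 0.547, 0.0736 and 0.344, and PKM at 0.533, 0.190 and 0.617. These 3 enzymes were thus lower against GAPDH in each treated library, and so were ALDOA and ENO3, given below. The ratios also depend on GAPDH, which was itself at 0.912, 1.72 and 1.72 on the nuclear scale. PKM was at 1.06 on that scale in treated library 3. TPI1 stayed near GAPDH in all 3 libraries, at 0.969, 0.969 (0.891 to 1.05) and 0.895. PGAM2 was at 0.988, 1.34 and 1.28, so that it exceeded GAPDH in treated libraries 2 and 3. ALDOA was at 0.819, 0.353 and 0.672, and ENO3 at 0.939, 0.708 and 0.725. LDH-A was close to GAPDH in treated libraries 1 and 3 (1.02 and 0.989) and lower in treated library 2 (0.414), and PGK1 was at 1.04, 0.148 and 0.731.

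An x-fold below 0.6 or above 3 was taken as outside the limits, the same limits in every comparison. On the goat-paired scale, 4 of 9 members were below 0.6 in treated library 1, where 52.7% of the 7544 goat genes with a mean of at least 10 counts were, 9 of 9 in treated library 2, where 99.3% were, and 2 of 9 in treated library 3, where 71.9% were. On all counts the members' numbers were the same, and 56.0, 99.4 and 73.8% of all genes were below 0.6. On the nuclear scale, 3 of 9 were below 0.6 in treated library 1 (36.5% of all genes), 4 of 9 in treated library 2 (47.1%) and 1 of 9 in treated library 3 (37.9%). No member exceeded 3 in any library on these scales. Of all genes, 2.62, 0.0663 and 0.636% did so on the goat-paired scale, 2.28, 0.0663 and 0.610% on all counts, and 4.51, 10.5 and 2.19% on the nuclear scale. The members' median x-fold was 0.643, 0.0169 and 0.734 on the goat-paired scale, beside medians of 0.572, 0.0183 and 0.426 for all genes. On the nuclear scale it was 0.856, 0.607 and 1.25 beside 0.762, 0.659 and 0.724. In treated library 3, 7 of 9 members lay above the median of all genes, against 5 in treated library 1 and 4 in treated library 2.

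The treated group was compared with the control library by edgeR's quasi-likelihood test over 8494 goat genes, in which the single control library is assumed to vary like the treated ones. No member passed an adjusted p of 0.05, and none had an unadjusted p under 0.05. Of all genes, 0.141% were called higher and 0.306% lower (12 and 26 genes), and 11.2% had an unadjusted p under 0.05. The lowest p of a member was that of PGAM2, with a log2 difference of 1.12 (SE 0.98) and an adjusted p of 0.759 by edgeR. The log2 difference was 0.81 (SE 0.99) for GAPDH, -0.73 (SE 0.90) for PYGM and -0.93 (SE 0.88) for PFKM. It was 0.07 for ALDOA, 0.72 for TPI1, 0.09 for PGK1, 0.43 for ENO3 and -0.33 for PKM. The test did not separate these differences from the spread between the treated libraries. With its scaling, the control library lay below all treated libraries for GAPDH, TPI1, PGAM2 and ENO3. It lay above all of them for PYGM and PFKM, and between them for ALDOA, PGK1 and PKM. DESeq2 also called none of the members. On simulated counts with the spread fitted to these libraries, 26 of 200 genes changed by 8-fold were recovered, so that most changes of this size would be missed.

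**Figure D3:**
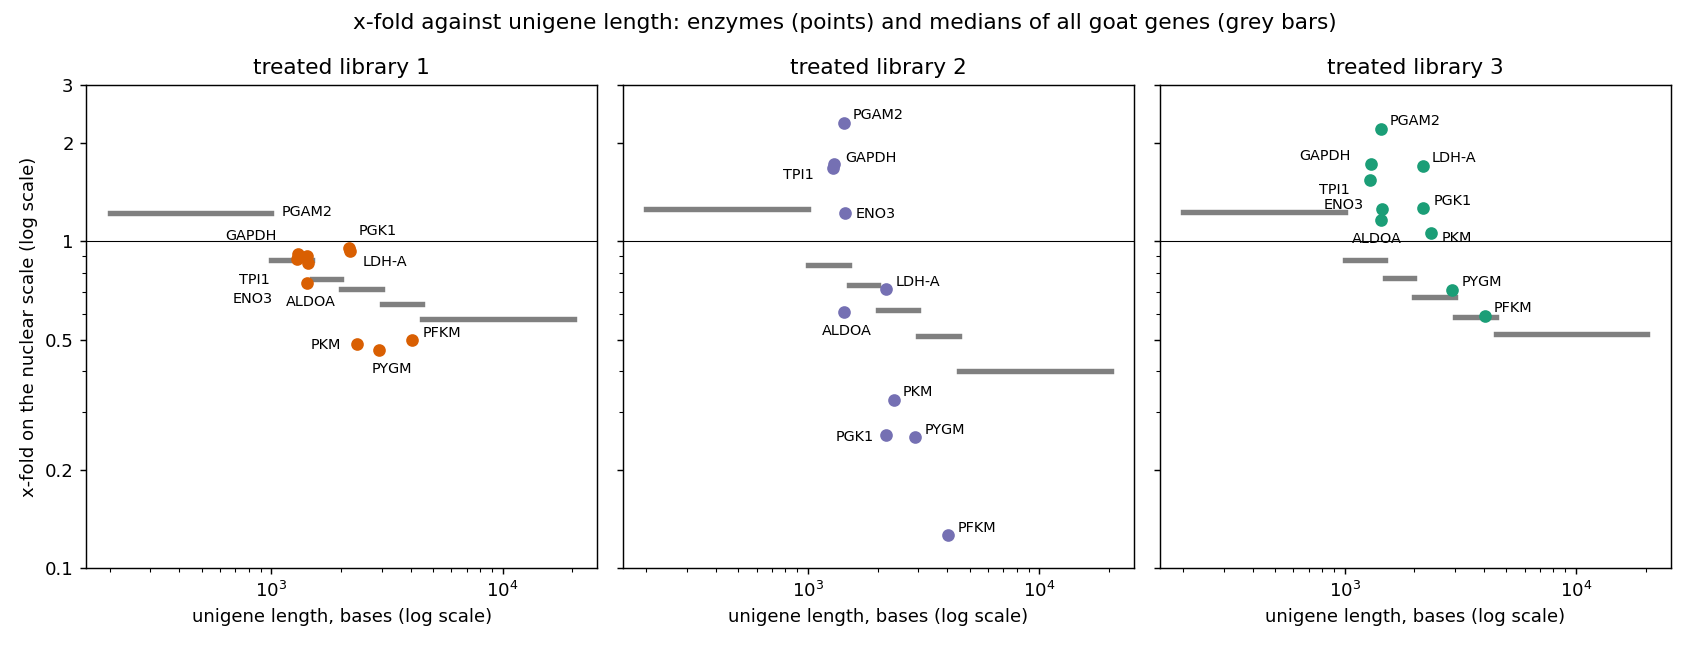
The x-fold on the nuclear scale against unigene length (both log scales) for the 10 enzymes (points) and the medians of all goat genes in 6 length classes (grey bars). In all 3 treated libraries the medians fall with length, and PFKM, PYGM and PKM lie below the enzymes of up to 1500 bases. PGK1 (0.952) and LDH-A (0.930), also long, lie above those enzymes in treated library 1 and within their range in treated library 3.

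The enzymes differ in the length of their unigenes, which was not used to choose them. GAPDH, ALDOA, TPI1, PGAM2 and ENO3 have unigenes of up to 1500 bases, and PYGM, PFKM, PGK1, PKM and LDH-A of over 2000 bases. On the nuclear scale the shorter ones had x-folds of 0.747 to 0.912 in treated library 1, 0.607 to 2.30 in treated library 2 and 1.16 to 2.20 in treated library 3. The longer ones had 0.465 to 0.952, 0.126 to 0.712 and 0.591 to 1.70. Across the 10 enzymes, Spearman's rho of x-fold with length was -0.47, -0.84 and -0.72, as a description of 10 points that share libraries. Across all 7544 genes it was -0.23, -0.16 and -0.33. With the percent of G and C bases in the unigene, rho was -0.44, 0.32 and 0.05 across the enzymes. Across all genes it was -0.14, 0.12 and 0.08. The median x-fold of all genes was 1.22, 1.25 and 1.23 for unigenes of up to 1000 bases and 0.578, 0.402 and 0.520 for those of over 4500 bases. The study judged the RNA of its sequencing samples to be complete. RNA integrity of the libraries is not analysed here, and the part of length or base content in the enzyme values was not tested.

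As a reference gene, GAPDH was set beside 8 other genes often used for this purpose that had at least 100 control counts, and beside the other enzymes, 18 genes in all with GAPDH. On the nuclear scale the range of its level over the 4 libraries was 0.92 on the log2 scale, which ranked 3. ENO3 had the smallest range with 0.54, followed by IPO8, a nuclear import receptor, with 0.68, though IPO8 rests on 2 counts in treated library 2. TPI1 had 0.92 and ALDOA 0.93. The ribosomal protein genes RPS18 and RPLP0 had 1.02 and 1.21, and RPL4 had 1.91. Among the other reference genes, HSP90AB1 had 1.09, ACTB 1.35, EEF1A1 1.37 and SDHA 1.98. PFKM had the widest range with 2.97, followed by PGK1 with 2.28 and PYGM with 1.99.

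**Figure D4:**
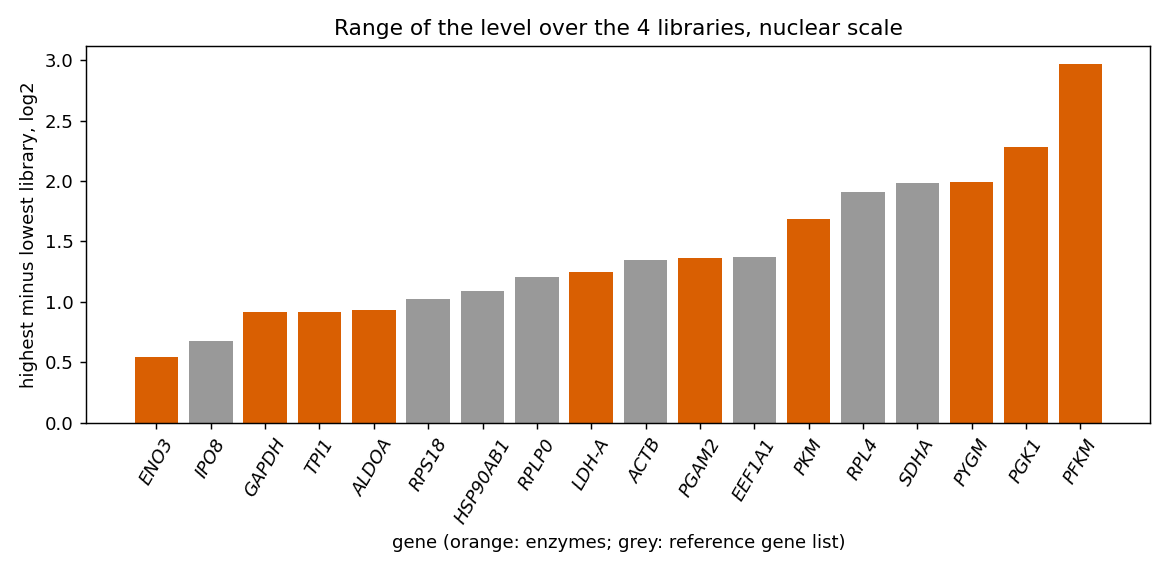
The difference between the highest and the lowest library in log2 level on the nuclear scale for the 10 enzymes (orange) and 8 reference genes (grey). GAPDH ranks 3 of 18 with 0.92, and PFKM is the widest with 2.97.

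On the goat-paired scale the range of GAPDH was 4.41 and ranked 5, behind RPL4 with 3.92, RPLP0 with 4.03, RPS18 with 4.27 and PGAM2 with 4.34. Without treated library 2, which was left out after its few remaining counts had been seen, the range of GAPDH was 0.56 on the goat-paired and 0.92 on the nuclear scale, with ranks 5 and 9. PGK1 then ranked 1 on the nuclear scale with 0.40, since its wide range came from treated library 2. The place of GAPDH among the reference genes thus moved with the scale and with 1 library.

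The other enzymes of the pathway were taken from lists of genes. Of 20 listed genes of glycogen turnover, 16 were measured, and 8, 16 and 9 of them were below 0.6 on the goat-paired scale in treated libraries 1, 2 and 3, beside 52.7, 99.3 and 71.9% of all genes. On the nuclear scale 6, 10 and 5 were, beside 36.5, 47.1 and 37.9% of all genes. Phosphoglucomutase (PGM1), which follows PYGM, had 12292, 2925, 80 and 4457 counts and x-folds of 0.363, 0.296 and 0.818 on the nuclear scale. Each treated library was lower than the control library, as for PYGM, and low values on the goat-paired scale were a rule for naming genes. The kinase subunit PHKA1, part of the enzyme that activates PYGM, had 3341, 881, 6 and 827 counts and x-folds of 0.402, 0.0817 and 0.558. Glycogenin (GYG1), the primer of glycogen synthesis, was at 1.03, 0.282 and 1.14. GAA, the lysosomal enzyme of glycogen breakdown, had 261, 55, 1 and 42 counts.

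EPM2A, the glycogen phosphatase laforin, was the glycogen gene that edgeR called, and the only one of the 16 tested. It had 262, 8, 1 and 14 counts, with an edgeR adjusted p of 0.0388. Its nuclear x-fold was 0.0466 in treated library 1 and 0.121 in treated library 3, while 1 count in treated library 2 left an interval of 0.00438 to 0.976. The call was lost without treated library 1 (adjusted p 0.450 by edgeR) and without treated library 3 (0.314), and also with the goat-paired total as library size (0.975) and in DESeq2 (0.373). The call held without treated library 2, and with the goat-paired total edgeR called no goat gene at all. PPP1R3C, which targets protein phosphatase 1 to glycogen, was chosen after its values were seen, as the glycogen gene over the upper limit in treated libraries 1 and 3. It had 363, 1165, 2 and 911 counts. In libraries 1 and 3 its x-folds were 3.67 and 3.33 on the goat-paired scale and 4.89 and 5.66 on the nuclear scale. Treated library 2 held 2 counts of it, and edgeR did not call the gene.

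Of 20 listed genes of glucose entry and the early steps, 15 were measured, and 8, 15 and 10 were below 0.6 on the goat-paired scale (all genes 52.7, 99.3 and 71.9%), or 7, 10 and 6 on the nuclear scale (36.5, 47.1 and 37.9%). PFKFB3, which makes the activator of phosphofructokinase, had 4511, 821, 4 and 874 counts and x-folds of 0.278, 0.0403 and 0.437 on the nuclear scale. PFKFB4, of the same family, had 2529, 517, 26 and 292 counts and x-folds of 0.312, 0.468 and 0.260. Both were below 0.6 in all 3 treated libraries on either scale. On the goat-paired scale this was a rule by which they were named. PFKFB2, of the same family and named because edgeR called it lower, had 106, 0, 0 and 3 counts and an edgeR adjusted p of 0.0184, which became 0.332 without treated library 1 and 0.121 without treated library 3. The edgeR call of PFKFB2 held without treated library 2. Hexokinase 1 (HK1) had 337, 83, 3 and 79 counts, and GPD2, the mitochondrial glycerol phosphate dehydrogenase, had 857, 283, 1 and 141.

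The other early genes named had many control counts. Glucose phosphate isomerase (GPI), which stands between PGM1 and PFKM in the pathway, had 3245, 1991, 40 and 2512 counts and x-folds of 0.936, 0.561 and 1.75 on the nuclear scale. GPD1, the cytosolic glycerol phosphate dehydrogenase, had 3457, 2874, 46 and 2296 counts. FBP2, the muscle fructose bisphosphatase that runs against PFKM, was at 0.745, 0.224 and 1.17. On the goat-paired scale GPI was at 0.702, 0.0156 and 1.03 (0.974 to 1.08), so that treated library 3 was near the control library on that scale and above it on the other.

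Sister enzymes of other tissues could share reads with the muscle forms. The coding sequences of ENO1 and ENO3 were 76.3% identical over 1302 aligned bases, those of PGAM1 and PGAM2 77.1%, and those of LDHB and LDH-A 69.0%. ENO1 held 450, 263, 16 and 188 counts, which in the control library was 1.02% of the pair. PGAM1 held 165, 54, 6 and 45 counts and LDHB 692, 338, 12 and 212, with 0.904 and 5.86% of their pairs in the control library. LDHB, the heart form of lactate dehydrogenase, took 2.46% of its pair in treated library 3. PYGL, the liver phosphorylase, had 31 control counts (0.0323% of its pair). The muscle forms thus held most of the counts of each pair. GAPDHS, the form of the sperm, had 6, 9, 3 and 1 counts. None of the 5 sister genes tested was called by edgeR, and 3 passed the minimum of 10 mean counts.

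Of 19 listed genes for the fate of pyruvate and lactate, 13 were measured, and 11, 13 and 13 of them were below 0.6 on the goat-paired scale (all genes 52.7, 99.3 and 71.9%), or 9, 8 and 6 on the nuclear scale (36.5, 47.1 and 37.9%). PDK4, the kinase that shuts pyruvate dehydrogenase, had 11892, 1749, 20 and 298 counts and x-folds of 0.224, 0.0765 and 0.0565 on the nuclear scale. PDHA1, a subunit of pyruvate dehydrogenase itself, had 1380, 36, 7 and 165 counts and x-folds of 0.0398, 0.231 and 0.270. Both the kinase and its target were thus low in each treated library. Low values in each treated library on the goat-paired scale were a rule by which genes were named. DLD, another subunit, was at 0.450, 0.271 and 0.604, and SLC16A3, the transporter that exports lactate, at 0.231, 0.572 and 0.575. LDH-A, the enzyme that makes lactate, was at 0.930, 0.712 and 1.70 beside them. The edgeR test called none of the 14 genes of this list that it tested.

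Of 15 listed regulators of glycolysis, 13 were measured, and 8, 13 and 11 were below 0.6 on the goat-paired scale (all genes 52.7, 99.3 and 71.9%), or 6, 8 and 8 on the nuclear scale (36.5, 47.1 and 37.9%). Above 3 was 1 of them, in treated library 1 on both scales. MLXIP, a glucose-sensing transcription factor, had 914, 55, 1 and 120 counts. TXNIP, which restrains glucose uptake and is a target of MLXIP, had 5363, 6744, 94 and 2552 counts and x-folds of 1.92, 0.797 and 1.07 on the nuclear scale. In treated library 1 the factor was thus lower than in the control library and its target higher. Of the subunits of AMP-activated kinase, PRKAG3 had 741, 291, 1 and 159 counts and PRKAB1 had 130, 63, 2 and 49. PRKAG2, added after its values were seen, had 51, 76, 2 and 30, and was higher on the nuclear scale in treated library 1, with an x-fold of 2.27. PRKAB2, another subunit, was called lower by edgeR, with 97, 0, 0 and 3 counts and an adjusted p of 0.0273, which became 0.375 without treated library 1 and 0.142 without treated library 3. With the goat-paired total as library size neither PRKAB2 nor PFKFB2 was called by edgeR (adjusted p 0.975 for each), and DESeq2 gave them no adjusted p. With that total edgeR called no goat gene at all. The edgeR call of PRKAB2 held without treated library 2. FOXK2, a transcription factor of glycolytic genes, had 403, 182, 2 and 115 counts.

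Fast fibres hold more of the glycolytic enzymes than slow ones. The summed fast fibre genes (9 found, 8 with a mean of at least 10 counts) were at 115278, 140545, 109513 and 195533 nuclear CPM. The slow fibre genes (10 found) were at 48494, 59742, 31741 and 50502. On the nuclear scale the fast fibre sum was highest in treated library 3, where the members' sum was also highest. In treated library 1 the fast fibre sum was above the control library and the members' sum below it. On the goat-paired scale both sums were highest in the control library. The fast fibre sum was 87894 CPM there and 87666 in treated library 3, nearly equal, whereas the members' sum was 68978 and 49429 CPM. By single genes, the median nuclear x-fold of fast fibre genes was 0.778, 0.468 and 1.29, and that of slow fibre genes 0.762, 0.269 and 0.446. By edgeR no fast fibre gene was called, and of the slow fibre genes MYL3, a myosin light chain, was called lower, with 1193, 23, 7 and 38 counts and an adjusted p of 0.0325, which became 0.440 without treated library 1 and 0.359 without treated library 3. The MYL3 call held without treated library 2 but not in DESeq2. The part of the fibre types in the enzyme values was not tested.

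The goat genes with x-folds closest to those of the members' sum over the 3 treated libraries were sought among 2784 genes with a mean of at least 100 counts. They were ANGPTL4, ATP5G2, SUCLG1, LOC102180353 and WDR83OS, at distances of 0.13 to 0.20 on the log2 scale. ANGPTL4 had x-folds of 0.575, 0.0206 and 0.671 on the goat-paired scale, beside 0.548, 0.0242 and 0.717 for the sum. The nearest to GAPDH were MRPL12 with 0.741, 0.0450 and 1.06, then LOC102185373 and STBD1, a protein that binds glycogen, with 0.590, 0.0455 and 0.930. With 3 libraries this is a description of these libraries only.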

How the data were processed

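RNA of longissimus muscle was sequenced by the authors on an Illumina instrument after library preparation with a NEBNext Ultra kit. They assembled the reads into unigenes. The assembler, the counting tool and the versions are not given in the sources used here, except FastQC 0.10.1 in the submitters' processing notes. The authors deposited for each unigene and transcript an expected count, which was a whole number throughout, as well as TPM and FPKM, which both adjust for effective length and library total. In another deposited table, 21220 unigenes are paired with 11208 names of goat genes, beside the percent identity of the protein match. The names were taken as listed, and 9 of the 10 were also symbols of the goat assembly ARS1.2, from which no positions were taken.

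Expected counts were summed per goat gene. They were set relative to all counts, to all goat-paired counts, and to these without 26 unigenes of proteins of the mitochondrial genome, which were found by their protein description because 25 have no gene name. Ratios have exact Clopper-Pearson intervals and shares have Wilson intervals. Background shares are those of the 7544 genes with a mean of at least 10 counts. The edgeR test (TMM factors, filterByExpr, Benjamini-Hochberg adjustment over all named goat genes) compared 3 treated libraries with 1 control library. It was tested on simulated data, where 186 of 200 genes changed by 8-fold among 8494 were recovered at a dispersion of 0.05 and 26 at the fitted 0.23. Library sizes there were the counts of named genes, without most mitochondrial ones.

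The members and gene lists were chosen with earlier results of these data known. Genes named from each pathway list are up to 4, in order of control counts, below 0.6, or above 3, in each of the treated libraries on the goat-paired scale (at least 10 control counts), and the 4 with the most control counts. Added to these are the genes nearest to the members' sum and to GAPDH, the reference genes with at least 100 control counts, and, chosen after their values were seen, PPP1R3C, PRKAG2 and the genes of these lists, of the fibre lists and of the muscle list that edgeR called. A listed glycogen gene and a listed reference gene that meet these rules are not reported here. Alternatives were other totals, median scaling, FPKM and TPM, a minimum identity of 90%, other limits, other factors or filters, DESeq2, and leaving out each treated library. Ratios to GAPDH and ranges without treated library 2 were added after the data were seen. The authors' tables that class FPKM into ranges hold nothing further and were left out. Software was R 4.3.3 with edgeR 4.0.16 and DESeq2 1.42.0, and Python 3.11.15 with Biopython 1.88, matplotlib 3.10.9, pandas 2.3.3, scipy 1.17.1 and numpy 2.4.6.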

Additional observations from a re-analysis of the deposited data

Results flagged for a closer look

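Among all unigenes, 26 had a best protein match in an apicomplexan parasite. They held 8, 254, 5 and 0 counts in the control library and treated libraries 1, 2 and 3. Of these, 21 had no nucleotide match, with 5, 124, 2 and 0 counts, so that the 124 counts in treated library 1 exceeded the control library. By a wider rule that used nucleotide and protein matches, 4 unigenes classed as apicomplexan are paired with GAPDH, ALDOA or ENO3. Whether these 4 are among the 26 was not checked, and they were summed into these genes. They held 24 counts in treated library 1, beside 263479 of the mammalian ones.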

How the results depend on the processing

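The summed members' x-fold (0.548, 0.0242 and 0.717 in treated libraries 1, 2 and 3 on the goat-paired counts) was 0.513, 0.0222 and 0.690 on all counts, 0.730, 0.870 and 1.22 without the mitochondrial genome, 0.957, 1.32 and 1.68 with the median ratio of goat genes set to 1, 0.514, 0.0228 and 0.694 from FPKM times length, 0.529, 0.0361 and 0.783 from TPM, and 0.555, 0.0223 and 0.705 with unigenes of at least 90% identity. In treated library 2 the direction turned for GAPDH, TPI1, PGAM2 and ENO3 without the mitochondrial genome (1.72, 1.67, 2.30 and 1.22) and with median scaling (2.61, 2.53, 3.50 and 1.85). In treated library 3 it turned for ALDOA, TPI1, PGK1, ENO3 and PKM without the mitochondrial genome (1.16, 1.54, 1.26, 1.25 and 1.06) and with median scaling (1.60, 2.13, 1.74, 1.72 and 1.47). In treated library 1 it turned with median scaling for GAPDH (1.20), TPI1 (1.16), PGK1 (1.25), PGAM2 (1.18) and ENO3 (1.12). Members below 0.6 were 4, 9 and 2. With median scaling they were 0, 4 and 0, and without the mitochondrial genome 4 in treated library 2 and 1 in treated library 3. By construction these scales drop or absorb the mitochondrial share.

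The number of goat genes called (38, as 12 and 26) was 0 with the goat-paired total or with all counts as library size (35 and 37 genes at an unadjusted p under 0.05 in edgeR), 4 by DESeq2, 104 with a filter of 1 count, and 1 to 68 when 1 treated library was left out. It was 7 without treated library 1, 68 without treated library 2 and 1 without treated library 3. No member was called under any of these settings. With the goat-paired total the median log2 difference of all genes was -1.54, and that of the members -1.09. No paired analysis was possible because there is 1 control library. Depth limits treated library 2 most, where 3 counts are 22.4 nuclear CPM.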
